A study of Mus musculus with 220 samples.

Results

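Golgi glycosyltransferases that are not assigned to the making of L-selectin ligands were examined in 220 single endothelial cells of mouse lymph nodes. The members were the genes whose symbols belong to the Galnt, C1galt1, Mgat, B4galt, B3gnt, St3gal, St6gal (St6galnac included) and Fut families. The rule used symbols only, and 58 of the 24049 gene symbols in the table met it. Fut7, Fut4, B3gnt3, B4galt1, St3gal4 and St3gal6, which serve the L-selectin ligand path, were left out by the rule.

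All mice were C57BL/6, and each cell was captured on the Fluidigm C1 microfluidic system and had its own library. The blood endothelial cells (BEC, 32 cells) and the homeostatic high endothelial cells (homeostatic HEC, 79 cells) came from untreated mice. For inflamed HEC (65 cells) 4% oxazolone, which provokes contact hypersensitivity, was put on the skin and cells were collected at day 3. For dedifferentiated HEC (44 cells) mice got LTBR-Ig, a soluble lymphotoxin β receptor that captures its ligands, as 1 injection into the peritoneum, and cells were collected at day 7. The number of mice, and the mouse of each cell, were not given in the sources used here. Each group therefore counts as 1 sample, so differences carry no test and the SD and intervals describe the spread and the counting error over cells. Inflamed cells 43 and 60 were nearly identical (Pearson r 0.988, next closest pair 0.701), and their mean was used as 1 cell, which left 64 inflamed HEC.

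Glycosyltransferases of the Golgi add sugars one after another to proteins and lipids that pass through. GALNT enzymes begin O-glycans by placing GalNAc on serine or threonine, and C1GALT1 extends this sugar to core 1 with the help of its chaperone Cosmc, the product of C1galt1c1. MGAT enzymes start the branches of N-glycans, B4GALT and B3GNT enzymes lengthen them, FUT8 adds the core fucose, and sialyltransferases cap the chains. In high endothelial venules, where lymphocytes leave the blood, a set of fucosyl-, sulfo- and sialyltransferases builds the L-selectin ligands on scaffolds that these general enzymes start.

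The promoters of 4 members are shown, because these genes stood on opposite sides of the comparison of HEC with BEC described further on. B3gnt2 and B4galt4 were lower in homeostatic HEC, Mgat2 was higher, and B4galt5 was at an FPKM of at most 0.13 in BEC. Each is the 250 bases before the RefSeq start, on the gene's strand in GRCm38.p6, with GGGCGG on either strand (CCGCCC on the other) in capitals.
B3gnt2, chr11:22859736-22859985, minus strand: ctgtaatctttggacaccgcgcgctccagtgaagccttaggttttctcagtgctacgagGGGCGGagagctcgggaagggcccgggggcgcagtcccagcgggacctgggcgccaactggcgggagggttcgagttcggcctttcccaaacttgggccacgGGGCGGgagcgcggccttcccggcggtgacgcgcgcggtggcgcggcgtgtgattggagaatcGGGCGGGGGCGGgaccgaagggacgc
B4galt4, chr16:38742009-38742258, plus strand: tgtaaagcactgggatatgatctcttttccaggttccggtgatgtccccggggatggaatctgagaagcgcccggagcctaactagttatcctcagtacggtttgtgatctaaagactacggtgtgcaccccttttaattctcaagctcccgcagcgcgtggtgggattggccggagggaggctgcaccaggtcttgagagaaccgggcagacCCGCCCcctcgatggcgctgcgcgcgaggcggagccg
Mgat2, chr12:69183908-69184157, plus strand: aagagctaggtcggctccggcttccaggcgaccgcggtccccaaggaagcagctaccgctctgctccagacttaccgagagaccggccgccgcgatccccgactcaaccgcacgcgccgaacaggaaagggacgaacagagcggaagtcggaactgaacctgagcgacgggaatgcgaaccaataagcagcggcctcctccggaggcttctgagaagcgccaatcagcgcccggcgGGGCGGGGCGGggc
B4galt5, chr2:167349179-167349428, minus strand: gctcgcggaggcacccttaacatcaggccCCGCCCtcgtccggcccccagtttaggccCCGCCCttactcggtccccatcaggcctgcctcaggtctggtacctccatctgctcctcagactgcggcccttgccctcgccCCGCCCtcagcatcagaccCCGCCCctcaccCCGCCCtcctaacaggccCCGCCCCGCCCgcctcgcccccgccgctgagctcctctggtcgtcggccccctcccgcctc

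The motif occurred 4 times in the B3gnt2 promoter, 1 time in B4galt4, 2 times in Mgat2 and 7 times in B4galt5, with overlapping copies counted and printed as 1 run. It was found in 32.7% of the 32851 promoters of this length. GC content was 70% in B3gnt2, 59.2% in B4galt4, 66.8% in Mgat2 and 73.2% in B4galt5, against a median of 52.4% over all promoters. Neither measure set the 2 genes lower in HEC apart from the other two. CCGGAAG (in 6.91% of promoters), TATAAA (12.4%) and the NF-kB decamer (7.25%) had no match on either strand in these 4 windows. A RefSeq promoter was given for 38 of the 58 members, among them 17 of the 30 that were measured as defined next.

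Of the 58 members, 30 were measured, meaning that they were detected in over 10% of the cells of at least 1 group. Detected here means an FPKM of at least 1, where FPKM are sequenced fragments for each kilobase of a transcript, relative to all mapped fragments of the cell. Another 14 were detected in fewer cells. They were B3gnt5, B3gnt7, B3gnt9, B4galt2, B4galt7, Fut9, Fut10, Galnt5, Galnt14, Galnt16, Mgat5, St3gal3, St6gal1 and St6galnac6. A further 6 were above 0 but never at 1 (B3gnt4, Fut1, Galnt13, Mgat4c, St6galnac1 and St6galnac5). The remaining 8 were listed at 0 in every cell (B3gnt6, B3gnt8, Galnt3, Galnt6, Galnt9, Mgat3, Mgat5b and St6gal2). Among these are the enzyme of the bisecting N-glycan branch, Mgat3, and the maker of mucin core 3, B3gnt6.

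A cell held few of these transcripts at a time. The number of members detected ran from 1 to 16 with a median of 7 in BEC, from 2 to 17 with a median of 8 in homeostatic HEC, from 3 to 18 with a median of 9 in inflamed HEC and from 1 to 15 with a median of 6 in dedifferentiated HEC. The ranges overlapped throughout, and the number of all genes detected had medians of 2870.5, 3842, 3961 and 3075 in the same order of groups. As a share of those genes the members had medians of 0.222%, 0.214%, 0.232% and 0.199%. By summed FPKM the order was another one. The members took a median of 0.153% of the FPKM in BEC, against 0.0611%, 0.0484% and 0.0514% in homeostatic, inflamed and dedifferentiated HEC. The ranges of this share overlapped, from 0.0183% to 0.495% in BEC and up to 0.248%, 0.216% and 0.421% in the HEC groups in the same order.

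**Figure D1:**
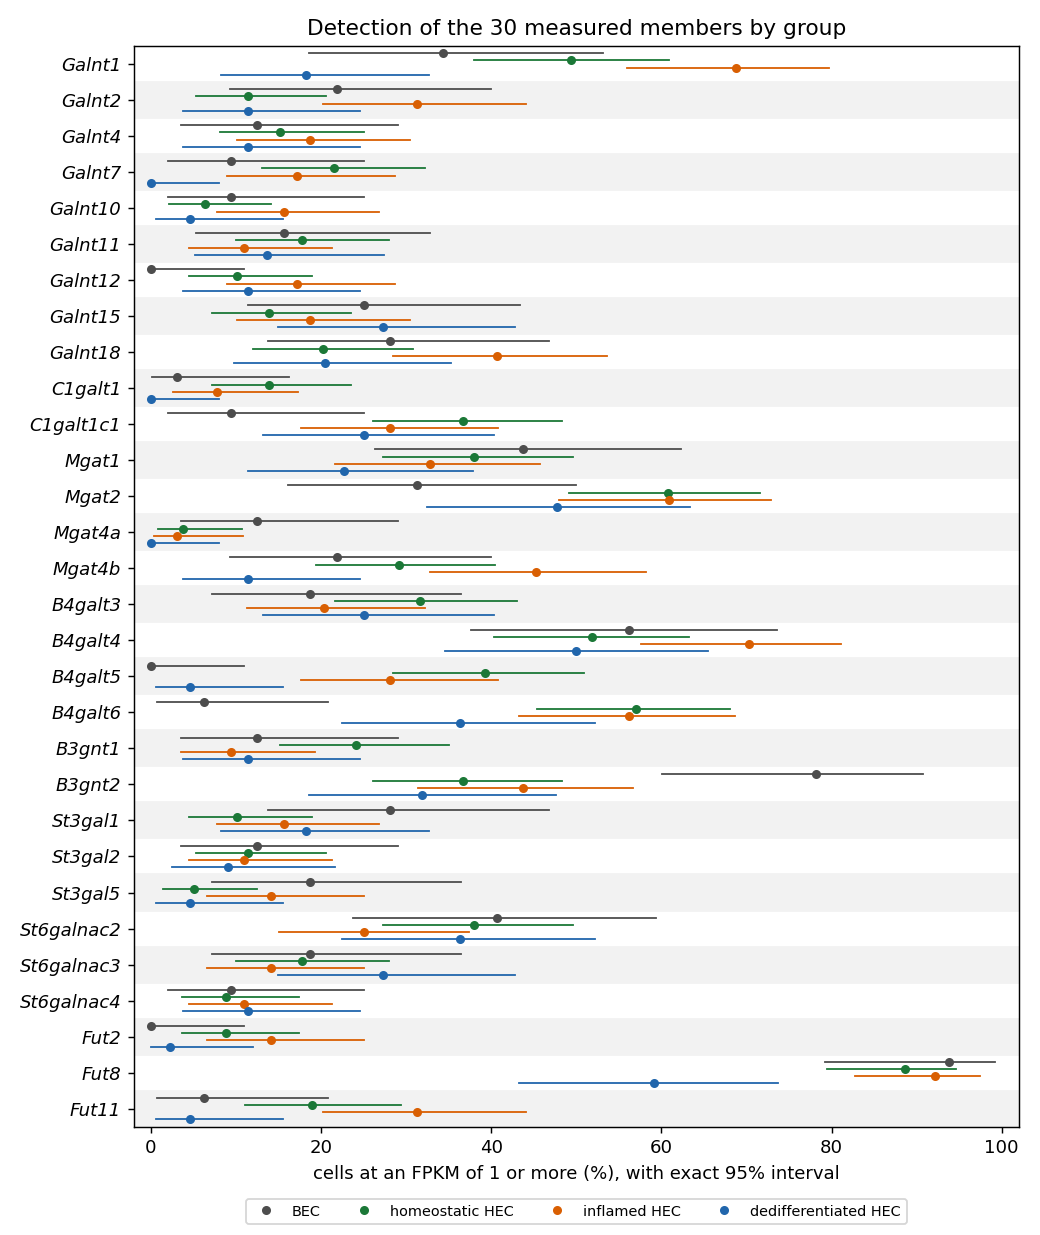
Share of cells with an FPKM of at least 1 (x axis, percent) for the 30 measured members, with exact Clopper-Pearson 95% intervals, in 32 BEC (grey), 79 homeostatic HEC (green), 64 inflamed HEC (orange) and 44 dedifferentiated HEC (blue). Fut8 was found in most cells of every group, B3gnt2 was found most often in BEC, and B4galt5 was found mainly in homeostatic and inflamed HEC. B4galt6 was found most often in these HEC groups too, but also in 16 of 44 dedifferentiated HEC, against 2 of 32 BEC.

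Approximate depth had group medians from 1827000 to 2133000 fragments per cell and ran from 717000 to 5016000 over all cells. At the median depth of 2044000 fragments an FPKM of 1 stands for about 2.96 fragments of C1galt1c1 and about 16.7 of St6galnac3, the extremes of the measured members found in the annotation, so short transcripts are less securely scored near 1. All 219 cells carried at least 3 pan-endothelial markers at an FPKM of 10. At least 3 of 7 high endothelial markers were at that level in all HEC and in 15 of 32 BEC, with summed FPKM medians of 427 in BEC and 73100 in homeostatic, 17886 in inflamed and 17794 in dedifferentiated HEC. Thus high endothelial transcripts were also found in cells labelled BEC, mostly at lower levels. Their summed FPKM ran from 45.72 to 3390.54 in BEC and began at 3388.9 in homeostatic, 1650 in inflamed and 2663.84 in dedifferentiated HEC. The highest BEC thus overlapped the lowest HEC. The exons of 22 members overlap those of another annotated gene, and the use of strand in counting was not given in the sources used here. These include B3gnt2, B4galt3, Fut8, Mgat2 and St6galnac2 of the members described below. In mm10 (GENCODE M21), B3gnt2 lies at chr11:22759738-22860961 on the minus strand, Fut8 at chr12:77238125-77476338 on the plus strand, Mgat2 at chr12:69184157-69186770 on the plus strand and C1galt1c1 at chrX:38630785-38635087 on the minus strand. B4galt3 lies at chr1:171270328-171276896 on the plus strand and St6galnac2 at chr11:116675303-116694868 on the minus strand.

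Homeostatic HEC and BEC were compared first, and members lay on both sides of this comparison. A member or gene is called higher or lower where its mean log2(FPKM + 1) differed by 1 or more, a scale that understates the fold of low genes. Of 27 members measured in this pair, B4galt6, C1galt1c1 and Mgat2 were higher in HEC, and B3gnt2, Fut8 and B4galt4 were lower. Over all 9248 genes measured, 17% were higher and 4.4% were lower, so the 3 of 27 members higher are a smaller share than among all genes and the 3 lower a larger one, with counts too small to read further. The median difference of the members was 0.15, with 16 of 27 above 0, and that of all genes was 0.28.

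Lactosylceramide synthases, which add galactose to glucosylceramide and so open the path to gangliosides, are encoded by B4galt5 and B4galt6. B4galt6 had a lowest, median and highest FPKM of 0, 0.235 and 17.98 in BEC and of 0, 1.65 and 148.83 in homeostatic HEC, with means of 0.46 ± 0.75 (SD, n = 32) and 2.03 ± 1.89 (n = 79) on the log2 scale. It was above 0 in 27 of 32 BEC but detected in 2 of them (6.25%), against 45 of 79 homeostatic HEC (57%), so that trace levels were common in BEC and higher levels were rare. The difference was 1.56, or 1.08 after cells were rescaled by their median ratio to a common profile.

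B4galt5 did not reach an FPKM of 1 in any of the 32 BEC, which allows a share of up to 9.38% taken as 3 of 32 cells (10.9% as the upper end of the exact 95% interval), and its highest value there was 0.13. In homeostatic HEC it ran from 0 to 55.23 with a median of 0.36 and was detected in 31 of 79 cells (39.2%, exact 95% interval 28.4 to 50.9). The ranges overlapped at the low end only through cells near 0. The difference of 0.94 fell just short of 1. Either of both synthases was detected in 72.2% of homeostatic HEC (19 cells had both, 12 had B4galt5 only, 26 had B4galt6 only) and in 6.25% of BEC.

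B3gnt2 makes poly-N-acetyllactosamine chains, the repeats that carry terminal sugars far out on a glycan. It had the largest difference of all measured members. In BEC it ran from 0.12 to 953.15 FPKM with a median of 44.35 and was detected in 25 of 32 cells (78.1%, 60 to 90.7). In homeostatic HEC it ran from 0 to 1314.75 with a median of 0.26 and was detected in 29 of 79 cells (36.7%, 26.1 to 48.3). It was above 0 in all 32 BEC and in 45 of 79 homeostatic HEC. The detecting cells had medians of 108.6 FPKM in BEC and 85.6 in HEC, so the groups stood further apart in the share of such cells than in their level. The means were 5.04 ± 3.54 and 2.25 ± 3.15, a difference of -2.79, or -3.50 after rescaling.

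Fut8, the core fucosyltransferase, was the most widely detected member. It ran from 0 to 889.7 FPKM with a median of 17.3 in BEC and from 0 to 481.92 with a median of 7.84 in homeostatic HEC. Fut8 was detected in 93.8% of BEC and 88.6% of homeostatic HEC, and values of 100 or more occurred in 8 of 32 and 2 of 79 cells. Most cells of both groups held it, and the highest values lay mostly in BEC. The means of 4.6 ± 2.61 and 3.21 ± 1.71 differed by -1.39, or by -2.41 after rescaling.

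B4galt4, a galactosyltransferase that acts on terminal GlcNAc, ran from 0 to 930.98 FPKM with a median of 8.92 in BEC and from 0 to 575.2 with a median of 1.31 in homeostatic HEC. It was detected in 18 of 32 and 41 of 79 cells. Its means of 3.93 ± 3.66 and 2.87 ± 3.10 differed by -1.07, and by -0.49 in the even-numbered cells, -1.64 in the odd-numbered ones and -2.49 in the cells of like gene number. Its relative B4galt3 stood at 1.30 ± 2.63 and 2.09 ± 3.12, a difference of 0.78.

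Mgat2, the enzyme that starts the second antenna of complex N-glycans, ran from 0 to 361.19 FPKM with a median of 0 in BEC and from 0 to 423.87 with a median of 3.77 in homeostatic HEC. Mgat2 was detected in 10 of 32 BEC (31.2%, 16.1 to 50). It was found in more homeostatic HEC, 48 of 79 (60.8%, 49.1 to 71.6). The difference of means was 1.14, or 0.78 after rescaling and 0.52 in 24 pairs of cells with like numbers of genes detected. It was 1.56 in the odd-numbered and 0.72 in the even-numbered cells, and 0.35 as a log2 ratio of arithmetic means. Mgat1, which acts just before it, had means of 2.48 ± 3.22 and 1.67 ± 2.42 and a difference of -0.81. In BEC, 7 cells had both detected, 7 had Mgat1 only and 3 had Mgat2 only, and in homeostatic HEC the numbers were 16, 14 and 32.

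C1galt1c1, the Cosmc chaperone without which core 1 synthase is lost, was detected in 3 of 32 BEC (9.38%, 1.98 to 25). Among homeostatic HEC 29 of 79 held it (36.7%). Its median was 0 in both groups, and its highest values were 190.29 and 548.16. The means of 0.59 ± 1.68 and 1.75 ± 2.78 differed by 1.16, or by 0.84 after rescaling and 0.57 in the cells of like gene number. The synthase itself, C1galt1, was detected in 1 BEC and 11 homeostatic HEC, and its difference was 0.73.

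Among the enzymes that start O-glycans, Galnt1 had a difference of 0.58, Galnt12 of 0.43, Galnt18 of -0.87, Galnt15 of -0.62 and Galnt2 of -0.50. None of them reached 1. Galnt12 was detected in 0 of 32 BEC, with the same limits of 9.38% and 10.9%, and in 8 of 79 homeostatic HEC. The sialyltransferases differed by -0.93 for St3gal5, which makes the ganglioside GM3 from lactosylceramide, by -0.79 for St3gal1, which caps core 1, and by 0.15 for St6galnac2, which sialylates the inner GalNAc of O-glycans. The members not described one by one (Galnt4, Galnt10, Galnt11, Mgat4a, St3gal2, St6galnac3 and St6galnac4) were detected in 0 of 44 (Mgat4a) to 12 of 44 (St6galnac3) dedifferentiated HEC and in no more than 27.3% of the cells of any group. Fut11, of the fucosyltransferase family, was detected in 2 of 32 BEC, 15 of 79 homeostatic, 20 of 64 inflamed and 2 of 44 dedifferentiated HEC, with a difference of 0.67 between homeostatic HEC and BEC.

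All 6 differences past 1 were smaller than the larger of the 2 SDs over cells, and the groups overlapped for each gene. With rescaled cells, which moved the median of all genes from 0.28 to -0.0031, the members split into 1 higher (B4galt6) and 6 lower in place of 3 and 3, and all genes into 9.05% higher and 11.2% lower. Of 6 pan-leukocyte markers, 6 reached an FPKM of 10 in some homeostatic HEC (summed FPKM 0.46 to 2877.89, median 139.58) and 1 did in BEC (0.10 to 997.91, median 1.74). Of the 5 measured in this pair, only Arhgdib (4.37) and Coro1a (1.71) were higher, and the lowest difference was -0.19. Arhgdib was detected in 86.1% of homeostatic HEC and 28.1% of BEC. Of 5 platelet markers, Ppbp, Gp9 and Gp1bb were listed at 0 in every cell, and the sum of all had a median of 3.98 (0 to 1571.91) in homeostatic HEC and 0 (0 to 209.63) in BEC. Pf4 of this list was higher by 3.40 in homeostatic HEC than in BEC, and lower by 1 or more in inflamed (-2.20) and dedifferentiated HEC (-3.20) than in homeostatic HEC. Of 8 blood capillary markers, 7 were lower in homeostatic HEC, with a median difference of -5.74 and summed FPKM medians of 10400 (3035 to 28857) in BEC and 477 (58.1 to 9121) in HEC. The part of these marker differences in the members' values was not tested. Without the 8 homeostatic HEC and 1 BEC that carried 3 or more markers of another cell type, B3gnt2 differed by -2.82, Fut8 by -1.40, B4galt4 by -1.26, B4galt6 by 1.64, C1galt1c1 by 1.13 and Mgat2 by 0.97.

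**Figure D2:**
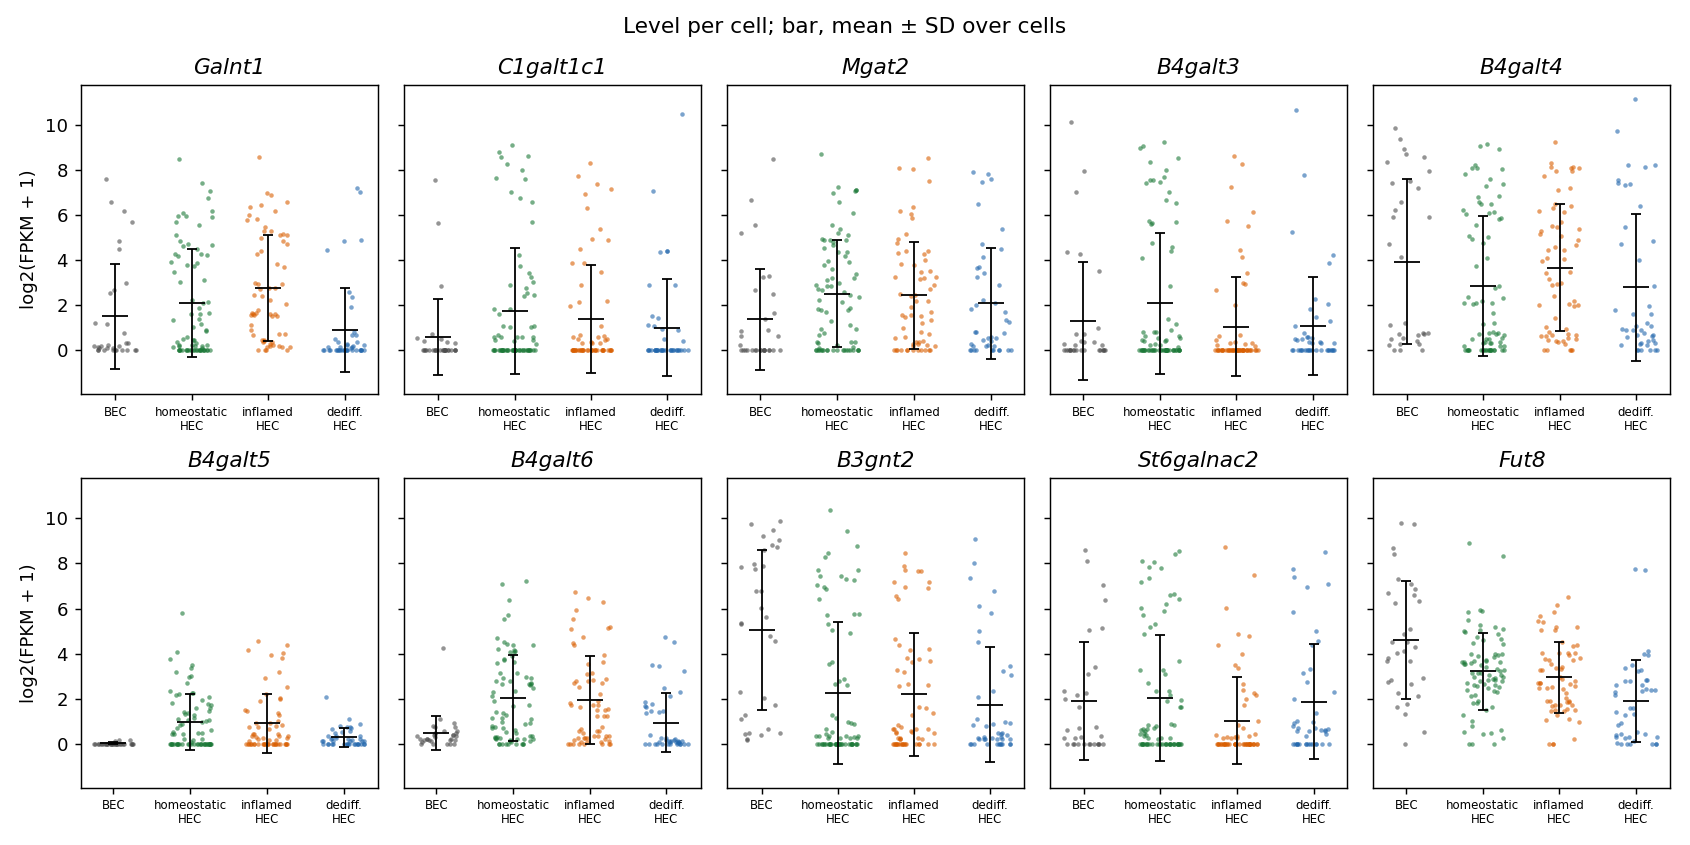
Level of 10 members in each cell (y axis, log2(FPKM + 1)) by group, with each point 1 cell and bars at the mean ± SD over cells. B3gnt2 was above 0 in all 32 BEC and at 0 in many HEC, B4galt5 lay near 0 in BEC, and Fut8 was above 0 in 31 of 32 BEC and 76 of 79 homeostatic HEC.

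Few members, like few of all genes, differed by 1 or more between inflamed and homeostatic HEC. Of 29 members measured in this pair, none was higher by 1 and 2 were lower, B4galt3 and St6galnac2. Over all 9525 genes measured, 5.48% were higher and 2.60% were lower, and the member counts are too small to read further. The members' median was -0.03, with 13 of 29 above 0, against 0.10 for all genes, and their range was -1.03 to 0.80.

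St6galnac2 ran from 0 to 379.03 FPKM with a median of 0.37 in homeostatic HEC and from 0 to 422.03 with a median of 0 in inflamed HEC. It was detected in 30 of 79 and 16 of 64 cells, and those cells had medians of 44.95 and 9.73. Fewer inflamed cells held it, at lower levels. The means of 2.04 ± 2.80 and 1.03 ± 1.95 differed by -1.02, with -0.59 in the odd-numbered and -1.47 in the even-numbered cells.

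B4galt3, another β4-galactosyltransferase, ran from 0 to 615.71 FPKM with a median of 0.19 in homeostatic HEC and from 0 to 393.93 with a median of 0 in inflamed HEC. It was detected in 25 of 79 and 13 of 64 cells, with medians of 101.9 and 20.9 among these. As with St6galnac2, the detecting cells were fewer and lower. The difference of -1.03 was -1.53 in the odd-numbered and -0.51 in the even-numbered cells, and -0.79 without the cells that carried markers of another type. After rescaling, both genes stood just under 1, at -0.98 for B4galt3 and -0.93 for St6galnac2, and no member was past 1. The pan-leukocyte sum had a median of 35.1 FPKM (0.07 to 1850.05) in inflamed HEC, against 139.58 in homeostatic HEC. Of the 5 markers measured, only Arhgdib was lower by 1 or more (-1.10).

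The largest positive differences were 0.80 for B4galt4, 0.76 for Mgat4b, which starts a further N-glycan branch, and 0.68 for Galnt1. B4galt4 was detected in 41 of 79 homeostatic and 45 of 64 inflamed HEC, Mgat4b in 23 and 29, and Galnt1 in 39 and 44. The synthases of lactosylceramide stood near 0, with -0.06 for B4galt5 and -0.09 for B4galt6, and so did B3gnt2 (-0.05) and Mgat2 (-0.07). The gene listed as B3gnt1 had a difference of -0.80, from 19 of 79 to 6 of 64 cells. That symbol is an older name that RefSeq gives as a synonym of B3gnt2 and of another gene, so its identity is uncertain.

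**Figure D3:**
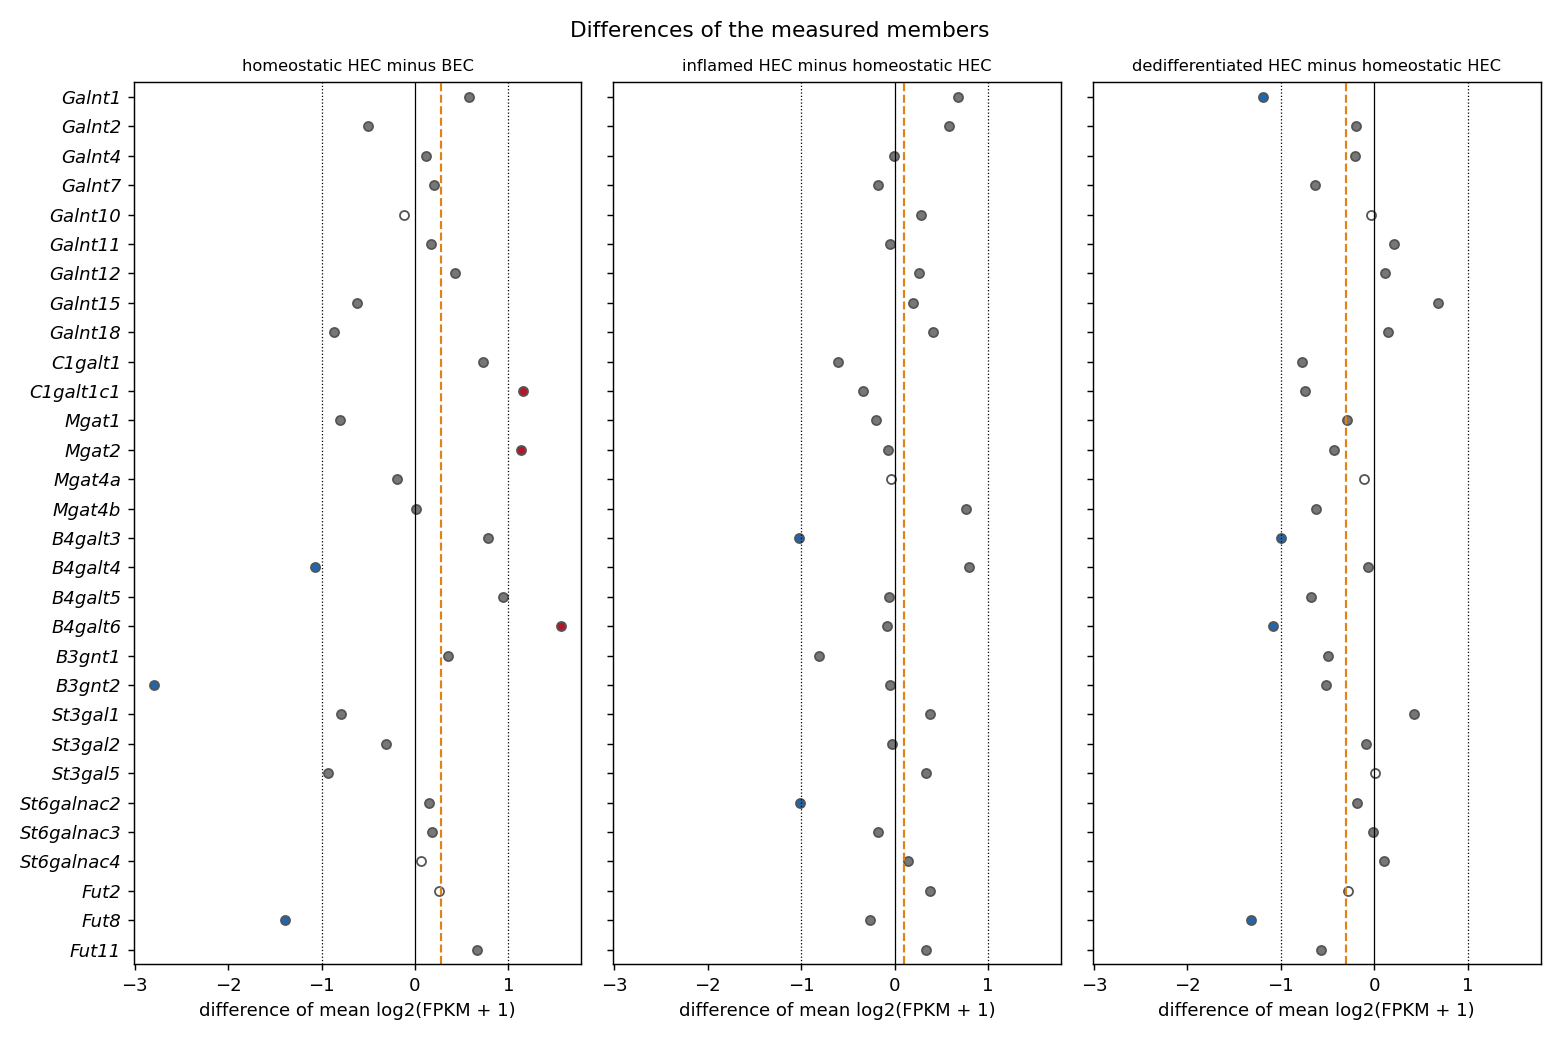
Difference of mean log2(FPKM + 1) (x axis) of the 30 measured members in the 3 comparisons; filled points were measured in that pair, hollow points were not, red and blue mark 1 or more higher or lower, dotted lines stand at -1 and 1 and the dashed line at the median of all genes. Members lay on both sides of 0 in the comparison of HEC with BEC, within about 1 in inflamed HEC and mostly below 0 in dedifferentiated HEC.

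Dedifferentiated HEC had lower levels of several members than homeostatic HEC. Of 26 measured in this pair, Fut8, Galnt1, B4galt6 and B4galt3 were lower and none was higher. Over all 9008 genes measured, 9.52% were lower and 0.833% were higher. The members' median was -0.36, with 6 of 26 above 0, close to the -0.30 of all genes. Both treated groups were set against the same homeostatic cells, so the 2 comparisons are not independent.

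Fut8 ran from 0 to 212.46 FPKM with a median of 2.02 in dedifferentiated HEC, where the homeostatic median was 7.84. It was detected in 26 of 44 cells (59.1%, 43.2 to 73.7), whereas in the other groups its share was at least 88.6%. The mean was 1.89 ± 1.84 and the difference -1.32. It was -2.03 in the odd-numbered and -0.59 in the even-numbered cells, -1.07 in 35 pairs of cells with like gene number and -0.74 as a log2 ratio of arithmetic means.

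Galnt1, a widely expressed starter of O-glycans, ran from 0 to 146.18 FPKM with a median of 0.045 in dedifferentiated HEC, against 0 to 360.46 and a median of 0.87 in homeostatic HEC. It was detected in 8 of 44 cells (18.2%, 8.19 to 32.7), 39 of 79 homeostatic cells (49.4%), 44 of 64 inflamed cells (68.8%, 55.9 to 79.8) and 11 of 32 BEC (34.4%). Its share was thus highest in inflamed and lowest in dedifferentiated HEC. The means were 0.92 ± 1.87 and 2.10 ± 2.41, a difference of -1.19. It was -1.61 in the odd-numbered and -0.76 in the even-numbered cells.

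B4galt6 ran from 0 to 25.7 FPKM with a median of 0.1 in dedifferentiated HEC and was detected in 16 of 44 cells (36.4%), with a difference of -1.09. B4galt5 was detected in 2 of 44 cells (4.55%, 0.555 to 15.5), its highest value was 3.23, and its difference was -0.68. Either synthase was detected in 40.9% of dedifferentiated HEC, below the 72.2% of homeostatic and 65.6% of inflamed HEC and above the 6.25% of BEC. No dedifferentiated cell had both, but the 2 cells with B4galt5 were too few to read this further. B4galt3 differed by -1.0, from a mean of 2.09 to 1.08 ± 2.18, and 84.2% of its FPKM in dedifferentiated HEC came from 1 cell. In the 35 pairs of cells with like gene number B4galt6 differed by -0.77 and B4galt3 by -0.51, and B4galt3 by -0.24 as a log2 ratio of arithmetic means.

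B3gnt2, the member that differed most between HEC and BEC, was detected in 14 of 44 dedifferentiated HEC (31.8%, 18.6 to 47.6), with a mean of 1.74 ± 2.55, against 25 of 32 BEC. Mgat2 was detected in 21 of 44 cells with a mean of 2.09 ± 2.47, and C1galt1c1 in 11 of 44 with a mean of 1.01 ± 2.15. Galnt7, which adds GalNAc to peptides that already carry some, was detected in 17 of 79 homeostatic HEC and in 0 of 44 dedifferentiated HEC, which allows a share of up to 6.82% taken as 3 of 44 cells (8.04% by the exact 95% interval). C1galt1 was likewise detected in 0 of 44. The largest positive differences were 0.68 for Galnt15 and 0.42 for St3gal1.

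After rescaling, which moved the median of all genes from -0.30 to 0.0753, no member was lower by 1: Galnt1 stood at -0.78, B4galt6 at -0.60, B4galt3 at -0.59 and Fut8 at -0.46, and 1.67% of all genes were lower. The 5 pan-leukocyte markers measured included Coro1a and Arhgdib, both lower by 1 or more in dedifferentiated HEC, where the summed FPKM of the 6 markers ran from 0.35 to 1181.56 with a median of 36.6. Of 6 B lymphocyte markers, 4 reached an FPKM of 10 in some dedifferentiated HEC (summed median 1.67) and 6 in homeostatic HEC (10.98), with Ebf1 lower by 1 or more. Without the cells that carried markers of another type, Fut8 differed by -1.40, Galnt1 by -1.36, B4galt6 by -1.18 and B4galt3 by -0.78.

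Within the Mgat, Galnt and St3gal families the member with the largest share of the FPKM was not the same in all groups, while B4galt4, B3gnt2, Fut8, St6galnac2 and C1galt1c1 led theirs in all 4. FPKM is per transcript length, so mean levels can be set side by side between genes. Mgat1 held 70.7% of the summed mean FPKM of the Mgat members in BEC and 43.8% in homeostatic HEC, where Mgat2 held 46%. In inflamed HEC the shares were 24.3% for Mgat1, 48.1% for Mgat2 and 27% for Mgat4b, and in dedifferentiated HEC they were 51.6% for Mgat1 and 46.6% for Mgat2. Among the Galnt members, Galnt18 held 50.7% in BEC, and Galnt1 held 31.6% in homeostatic and 32.3% in inflamed HEC. Galnt11 led in dedifferentiated HEC with 27.4%, but 83.0% of its total came from 1 cell. St3gal5 led in BEC with 70.3% (71.6% of its total from 1 cell), and St3gal1 in dedifferentiated HEC with 59.1% (69.1% from 1 cell). In homeostatic HEC St3gal5 held 41.4% and St3gal1 40.8%, and 82.9% of the St3gal1 total came from 1 cell. Of the C1galt1c1 total, 1 cell gave 76.7% in BEC and 87.1% in dedifferentiated HEC.

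B4galt4 held the largest share of the B4galt members in all groups, from 44.6% in homeostatic HEC to 73.2% in BEC. B3gnt2 held 61.5% to 90.6% of the B3gnt members and led in every group. The gene listed as B3gnt1, of uncertain identity, held 33.2% in homeostatic, 6.41% in inflamed and 37.7% in dedifferentiated HEC and 13.5% in BEC. The share of B3gnt2 thus depends on whether that gene is counted. Fut8 held 98.2% of the Fut members in BEC, 66.8% in homeostatic, 42.2% in inflamed and 51.5% in dedifferentiated HEC. Fut2, which makes the H antigen in secretory epithelia, held 30.4% in inflamed HEC from 9 of 64 cells. St6gal1 held 30.2% of the St6gal and St6galnac members in dedifferentiated HEC, with 88.5% of that from 1 cell. Single cells with high values therefore set several of these shares.

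**Figure D4:**
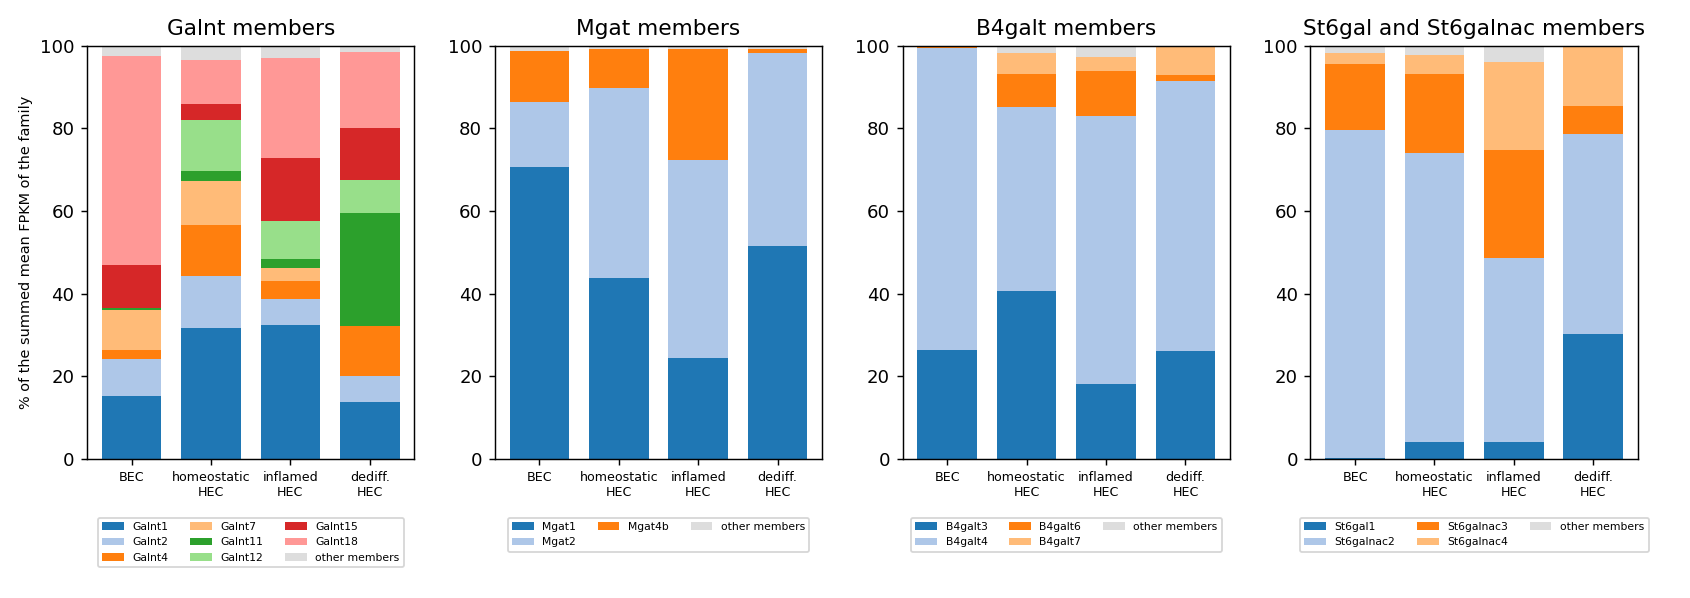
Share of each member in the summed mean FPKM of the members of its family (y axis, percent, bars from 0 to 100) in the 4 groups. Shown are the Galnt, Mgat, B4galt and St6gal with St6galnac members, without the genes left out by the rule, such as B4galt1. Mgat1 led in BEC with 70.7%, Mgat2 in inflamed HEC with 48.1%, and B4galt4 led the B4galt members in each group.

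Other genes of the glycosylation path gave context from lists. Of the 9 enzymes of L-selectin ligands (6 of them the genes left out by the rule, with Chst4, Chst2 and Gcnt1), 6 were higher and none was lower in homeostatic HEC than in BEC. Over all genes of this pair, 17% were higher and 4.4% were lower. In inflamed HEC B3gnt3 was higher by 1.53, and Gcnt1 (-2.25), Fut7 (-1.58), St3gal6 (-1.33) and Chst2 (-1.12) were lower. In dedifferentiated HEC Gcnt1 (-3.84) and Fut7 (-2.29) were lower. Of all genes, 5.48% were higher and 2.60% were lower in inflamed HEC, and 9.52% were lower in dedifferentiated HEC. The difference between these enzymes and the members was not tested.

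Among makers of sugar nucleotides, the donors that the members use, Gfpt1 (1.86) and Uap1 (1.27) of the UDP-GlcNAc path, Gne (1.83) of sialic acid synthesis, and Gmds (1.67) and Tsta3 (1.07) of GDP-fucose synthesis were higher in homeostatic HEC than in BEC. None was lower, and over all genes 17% were higher and 4.4% were lower. In inflamed HEC none differed by 1. In dedifferentiated HEC, where 9.52% of all genes were lower, Gfpt1 (-1.48), Uap1 (-1.43) and Gne (-1.05) were lower. Of 7 Golgi transporters of these donors, Slc35a1 for CMP-sialic acid (1.28) and Slc35a3 for UDP-GlcNAc (1.19) were higher in homeostatic HEC than in BEC, and none differed by 1 in the treated groups.

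Among 20 Golgi structure and tether genes, 6 were higher in homeostatic HEC than in BEC and none was lower, beside 17% and 4.4% of all genes. The difference was 2.58 for Gorasp2, a stacking protein, and 2.06 for Golph3, which retains glycosyltransferases in the Golgi. Gorasp2 (-1.57), Uso1 (-1.19) and Bet1 (-1.13) were lower in dedifferentiated HEC, as were 9.52% of all genes. Of the Golgi mannosidases, which trim N-glycans before and after the step of MGAT1, Man1a was higher by 3.97 in homeostatic HEC and Man1a2 by 1.31 in inflamed HEC. Of 4 other O-glycan and sialic acid enzymes measured, Gcnt2 (-1.16) and St8sia4 (-1.25) were lower in homeostatic HEC than in BEC, beside 4.4% of all genes. Among 4 sialidases and fucosidases, Fuca1 (1.81) and Fuca2 (1.06) were higher in homeostatic HEC than in BEC, beside 17% of all genes. Neu3 was lower (-1.32) in dedifferentiated HEC, as were 9.52% of all genes.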

How the data were processed

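Single-cell RNA sequencing of lymph node endothelial cells was analysed from 1 table of FPKM values that the authors deposited, with 24049 symbols, 220 cells and 2 decimals. The submitters' processing notes name RSEM 1.2.18, CASAVA 1.8 and the build mm10. Their roles and how doublets were handled were not given in the sources used here. Per the labels, cells were sorted by flow cytometry, and libraries were made with the Nextera XT kit. Groups follow the labels' titles, cell type and treatment.

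For each gene and group, means and SDs over cells of log2(FPKM + 1) and the share of cells detected (an FPKM of at least 1, exact Clopper-Pearson 95% interval) were computed with Python 3.11.15, pandas 2.3.3 and scipy 1.17.1. No count model fits FPKM values, and with 1 sample a group no p-value was computed. A comparison kept genes detected in over 10% of the cells of at least 1 of its groups. Depth per cell was approximated from the lowest steps of FPKM; on 20 simulated cells it was 0.990 to 1.01 times the true depth. Amplified reads carry no molecular tags, and the intervals hold only the error of counting cells. Cells with an r above 0.9 were averaged. Gene positions are from GENCODE M21, which held 57 of the 58 members, and promoters from RefSeq (GRCm38.p6).

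The members and gene lists were chosen with earlier results of these data known. Members were described in full where they differed by 1 or more in a comparison or were detected in 50% or more of a group; any other member could be named. Other genes were named only from the lists where they differed by 1 or more, and 1 of these is not reported here. Alternatives changed the pseudocount, the filter, the scaling, the summary over cells and the cells used.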

Additional observations from a re-analysis of the deposited data

How the results depend on the processing

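No paired analysis was possible because the cell numbers of the labels only name cells and link no cells across groups. The 12 member differences past 1 kept their direction in all 110 alternative values tried for them. They were picked for their size in these same cells, so the kept direction was largely fixed beforehand and tests nothing. The counts past 1 moved with the settings. For HEC against BEC, the members higher were 7 with a pseudocount of 0.1 (30.6% of all genes). With a pseudocount of 10 they were 0 (6.13%). After median-ratio scaling they were 1 (9.05%), by arithmetic means 7 (26.4%) and in odd-numbered cells 5 (23.1%), in place of 3 (17%). Those lower were 7 with a pseudocount of 0.1 (9.02%), 6 after median-ratio scaling (11.2%) and 9 by arithmetic means (19.2%). They were 6 in cells matched on gene number (10.6%) and 5 in odd-numbered cells (6.10%), in place of 3 (4.40%). For inflamed against homeostatic HEC, those higher were 4 with a pseudocount of 0.1 (15.7%) and 5 by arithmetic means (15.1%). They were 2 in odd-numbered (8.86%) and 1 in even-numbered cells (7.25%), in place of 0 (5.48%). Those lower were 0 with a pseudocount of 10 (0.892%) and after median-ratio scaling (2.42%), and 6 by arithmetic means (10.2%). They were 1 in odd-numbered cells (B4galt3, 5.06%) and 1 without cells that carried markers of another type (St6galnac2, 2.75%), in place of 2 (2.60%). For dedifferentiated against homeostatic HEC, those higher were 1 with a pseudocount of 0.1 (3.73%) and 4 by arithmetic means (15.1%). In matched cells it was 1 (B4galt4, 6.01%), in place of 0 (0.833%). Those lower were 9 with a pseudocount of 0.1 (24.4%), and 0 with a pseudocount of 10 (1.32%) and after median-ratio scaling (1.67%). They were 8 by arithmetic means (18.4%) and 2 in matched cells (Fut8 and Galnt1, 3.97%), in place of 4 (9.52%). The cause of these moves was not tested. B3gnt2 ranged from -4.12 to -1.63 and Fut8 from -2.41 to -1.04 between HEC and BEC, so both stayed past 1 in each setting; Fut8 ranged from -2.03 to -0.46 in dedifferentiated HEC. With few fragments behind an FPKM of 1, absence from a cell cannot be told apart from missed detection.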

Other observations

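The 4 members detected in at least 50% of homeostatic HEC (B4galt4, B4galt6, Fut8 and Mgat2) were compared over the 79 cells. Their 6 pairwise Pearson correlations on the log2 scale ran from -0.06 to 0.25, with the highest for B4galt4 and Mgat2, which had 0.15 over the 64 inflamed HEC. The same 2 genes had correlations of 0.40 and 0.31 with the number of genes detected in the cell. These cells differ in depth, and such weak values in sparse data describe these cells only.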
